A study of Mus musculus with 46 samples.

Results

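A set of 10 genes that mark the activated states of microglia was followed through a mouse study of dividing and resting microglia. They were Gpnmb, Spp1, Itgax, Clec7a, Igf1, Cst7, Lgals3, Axl, Cd9 and Hpse. They were taken by name from the deposited RNA tables, and all 10 were found there among 20999 genes. The names were picked with their levels in these samples already known, so differences between ages and treatments are given for them with their size and standard error (SE) and no p. Where such differences are counted past a threshold, the count stands beside the share of all genes and nothing is read from it. Tests are given for Ki67 status, which the choice did not use. Lists of related genes were also chosen with earlier results known, and the genes named from them are among those with the largest called changes, so their adjusted p-values describe these samples and are no independent support.

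Microglia came from male C57BL/6 mice and were sorted on CD11b, CD45 and CD44. The RNA was from 5 groups of 2 libraries, which the labels call independent biological replicates. Adult libraries were from untreated wild-type mice aged 90 days. Libraries of postnatal day 8 (PND8) came from mice with the Ki67-rfp reporter, a red fluorescent form of the cell cycle protein Ki67, and were split into Ki67-positive and Ki67-negative cells. The repopulation libraries, also split by Ki67, were from Ki67-rfp mice aged 75 days. These had received PLX5622, an inhibitor of the CSF1 receptor that depletes microglia, for 17 days from day 55 and then recovered for 3 days, when the brain was being refilled. The adult mice carried no reporter, so genotype and header code move with age in every RNA comparison with adult. In repopulation they also move with the PLX5622 treatment. These factors cannot be told apart in the RNA.

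Chromatin came from wild-type mice whose fixed cells were stained with an antibody to Ki67. H3K27ac, an acetylation of histone H3 at active promoters and enhancers, was profiled in 6 groups of 2 libraries. These were adult (60 and 65 days), PND8 Ki67-negative and Ki67-positive, cuprizone Ki67-negative and Ki67-positive (90 days), and repopulation Ki67-positive (labelled 90 days, with PLX5622 for 17 days from day 70 and 3 days of recovery). Cuprizone is a copper chelator that strips myelin from the brain, and it was given for 4 weeks. RNA of cuprizone mice was not analysed here. Butyrate, which blocks histone deacetylases, and flavopiridol, which blocks transcription, were present during isolation in all groups, per the labels. Labels conflict in places: titles of PND8 chromatin samples also carry the word Adult, ATAC titles name the reporter where the genotype field gives wild type, and 1 repopulation header names another age than its label.

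In a healthy adult brain, microglia keep a resting programme that includes P2ry12 and Tmem119. Around plaques, in dying myelin and in early postnatal white matter they take up debris and switch on another set of genes, often called the disease-associated or DAM programme. That set holds secreted factors (Spp1, Igf1), receptors for ligands on pathogens, dying cells or matrix (Clec7a, Axl, Itgax), and membrane and lysosomal proteins (Gpnmb, Cd9, Cst7, Hpse).

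Total counts ran from 6865903 to 10287876 per RNA library, and the libraries held 13557 to 14728 genes with a count. Mki67, which encodes Ki67, was at 10.998 to 13.4 CPM (counts scaled to library size) in adult libraries. It was at 242 to 463 CPM in Ki67-negative libraries and 920 to 1107 CPM in Ki67-positive ones, so the Ki67-negative cells still held more of it than adult cells. The summed level of 14 resting microglia genes lay between 9522 and 12964 CPM in all 10 libraries. No gene of that list was at 0 in any group. Replicates of PND8 Ki67-negative cells spread most, at 11.5 times the variance that counting alone gives, against 2.55 to 5.29 times in the other groups. In bulk RNA, more cells of one kind and more RNA per cell cannot be told apart.

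Gpnmb, Igf1 and Hpse were abundant at PND8 and near the floor in adult and repopulating cells. Gpnmb (chr6:49036518-49058182, plus strand, mm10) encodes a membrane glycoprotein of endosomes and lysosomes in phagocytes. Adult libraries held it at 0.463 and 0.855 CPM. It was at 77.3 and 112.0 CPM in PND8 Ki67-negative libraries and at 72.0 and 77.9 CPM in PND8 Ki67-positive ones. Repopulation libraries held 0 and 0.457 CPM in Ki67-negative cells and 0.347 and 0.864 CPM in Ki67-positive cells. Every PND8 library was thus far above every other library, and repopulation overlapped adult except that both Ki67-negative libraries were below it. The ratio of pooled counts between PND8 Ki67-positive and adult cells was 115, with an exact 95% interval of 63.8 to 230 that covers counting error only. Between PND8 and repopulation Ki67-negative cells it was 524 (179 to 2544), from 1846 and 3 counts.

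Igf1 (chr10:87859052-87937047, plus strand) encodes insulin-like growth factor 1, a secreted growth factor. It was at 3.35 and 2.93 CPM in adult libraries. In PND8 cells it reached 145 and 161 CPM in the Ki67-negative and 120 and 136 CPM in the Ki67-positive libraries. In repopulation it was at 2.71 and 1.37 CPM in Ki67-negative cells and at 1.27 and 1.15 CPM in Ki67-positive cells. All 4 repopulation libraries lay below both adult libraries. The log2 fold change against adult was 5.34 (SE 0.179) at PND8 and -1.36 (SE 0.341) in repopulation, both for Ki67-positive cells.

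Hpse (chr5:100679484-100719716, minus strand) encodes heparanase, which cuts heparan sulfate chains of the matrix. Adult libraries held 0.116 and 1.34 CPM. PND8 libraries held 49.01 and 67.7 CPM in Ki67-negative cells and 30.8 and 37.9 CPM in Ki67-positive cells. Repopulation libraries, at 0.729 to 1.15 CPM, lay inside the adult range. The ratio of pooled counts to adult was 83.8 (interval 47.8 to 163) for PND8 Ki67-negative cells and 48.1 (27.3 to 93.6) for Ki67-positive cells.

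Markers of border macrophages, the macrophages of the meninges and vessels, moved with age in the same way. The summed level of 9 such genes was 65.8 to 81.0 CPM in adult, 614 to 861 CPM at PND8 and 26.2 to 43.0 CPM in repopulation libraries. Most of it was Mrc1, which was at 520 to 834 CPM at PND8 and 49.7 to 52.7 CPM in adult libraries. Lyve1, a marker of perivascular cells, was at 12.7 and 27.1 CPM in PND8 Ki67-negative libraries, 3.74 and 5.78 CPM in PND8 Ki67-positive ones, and 2.08 and 2.81 CPM in adult ones. Lyve1, Cd209f and Clec4n were at 0 in all repopulation libraries. Erythroid transcripts were also higher at PND8 (23.3 to 77.0 CPM) than in adult (0.463 to 7.45 CPM). The part of either in the PND8 levels of the 10 genes was not tested.

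Spp1, Itgax and Axl were high in both young and repopulating cells, in different measure. Spp1 (chr5:104435111-104441053, plus strand) encodes osteopontin, a secreted phosphoprotein that binds integrins and CD44. It was at 6.48 and 5.99 CPM in adult libraries. PND8 libraries held 238 and 280 CPM in Ki67-negative cells and 207 and 220 CPM in Ki67-positive cells. Repopulation libraries held 38.0 and 47.2 CPM in Ki67-negative cells and 67.1 and 96.1 CPM in Ki67-positive cells. The 3 settings did not overlap, with PND8 highest and adult lowest. The log2 fold change of Ki67-positive cells against adult was 5.09 (SE 0.196) at PND8 and 3.70 (SE 0.201) in repopulation.

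The count table allows at most 3 tags per position, so a transcript has a ceiling set by its length. At 3 tags on every base of its transcript as the ceiling, Spp1 filled up to 69.3% of it at PND8 and Cd9 filled 48.9% to 73.5% in the 10 libraries. Only 102 and 81 of all genes filled more than those 2 maxima. The ceiling is approximate, since the highest gene reached 212% of it, and the other 8 genes filled up to 29.8%.

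Itgax (chr7:128129550-128150657, plus strand) encodes CD11c, the alpha chain of a beta2 integrin that binds complement-coated targets. Adult libraries held 28.6 and 25.7 CPM. It was at 138 and 210 CPM in PND8 Ki67-negative, 78.5 and 87.0 CPM in PND8 Ki67-positive, 174 and 190 CPM in repopulation Ki67-negative, and 132 and 130 CPM in repopulation Ki67-positive libraries. Every library was above adult, and the Ki67-negative cells of the 2 settings overlapped.

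Axl (chr7:25756500-25788733, minus strand) encodes a receptor kinase of the TAM family, which recognises dying cells through the bridging proteins Gas6 and Pros1. Its highest values were in repopulation, where no library overlapped another setting. It was at 37.0 and 41.9 CPM in adult, 78.8 and 140 CPM in PND8 Ki67-negative, and 99.8 and 142 CPM in PND8 Ki67-positive libraries. Repopulation libraries held 471 and 561 CPM in Ki67-negative and 392 and 470 CPM in Ki67-positive cells. The log2 fold change in Ki67-positive cells against adult was 3.45 (SE 0.238) in repopulation and 1.61 (SE 0.234) at PND8. Markers of astrocytes, which also use Axl, summed over 7 genes to 240 to 248 CPM in adult, 61.1 to 430 CPM in PND8 and 410 to 567 CPM in repopulation libraries, with none of the 7 at 0. Their part in the level of Axl was not tested.

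Clec7a and Lgals3 were lower in repopulation than in adult cells. Clec7a (chr6:129461591-129472779, minus strand) encodes Dectin-1, a receptor for beta-glucans. It was at 33.9 and 28.0 CPM in adult libraries and 8.06 to 10.9 CPM in the 4 repopulation libraries. PND8 replicates disagreed, at 39.9 and 23.5 CPM in Ki67-negative and 29.5 and 10.7 CPM in Ki67-positive cells, so that PND8 overlapped adult. Lgals3 (chr14:47373860-47386167, plus strand) encodes galectin-3, a lectin that binds beta-galactosides on glycoproteins and on damaged lysosomes. It was at 5.32 and 5.499 CPM in adult, 6.70 to 14.95 CPM at PND8 and 0.914 to 1.73 CPM in repopulation libraries, with no overlap between the settings.

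Markers of monocytes and neutrophils, cells that also use both genes, were higher in adult libraries, with a sum over 10 genes of 74.7 and 251 CPM against 7.52 to 18.5 CPM in the other 8 libraries. Their part in the adult levels of Clec7a and Lgals3 was not tested.

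Cst7 and Cd9 differed least between groups. Cst7 (chr2:150570415-150578944, plus strand) encodes cystatin F, an inhibitor of lysosomal cathepsins. It was at 9.14 and 11.2 CPM in adult, 12.2 to 24.7 CPM at PND8 and 19.1 to 23.5 CPM in repopulation libraries. Cd9 (chr6:125460266-125494760, minus strand) encodes a tetraspanin that organises proteins in the membrane. It stayed between 215 and 325 CPM in the 10 libraries, in all of which it filled at least 48.9% of the tag ceiling. Its TPM, a length-corrected level, were 267 to 384, the highest of the 10 genes in adult libraries (315 and 321 TPM). At PND8, Spp1 reached 220 to 295 TPM.

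**Figure D1:**
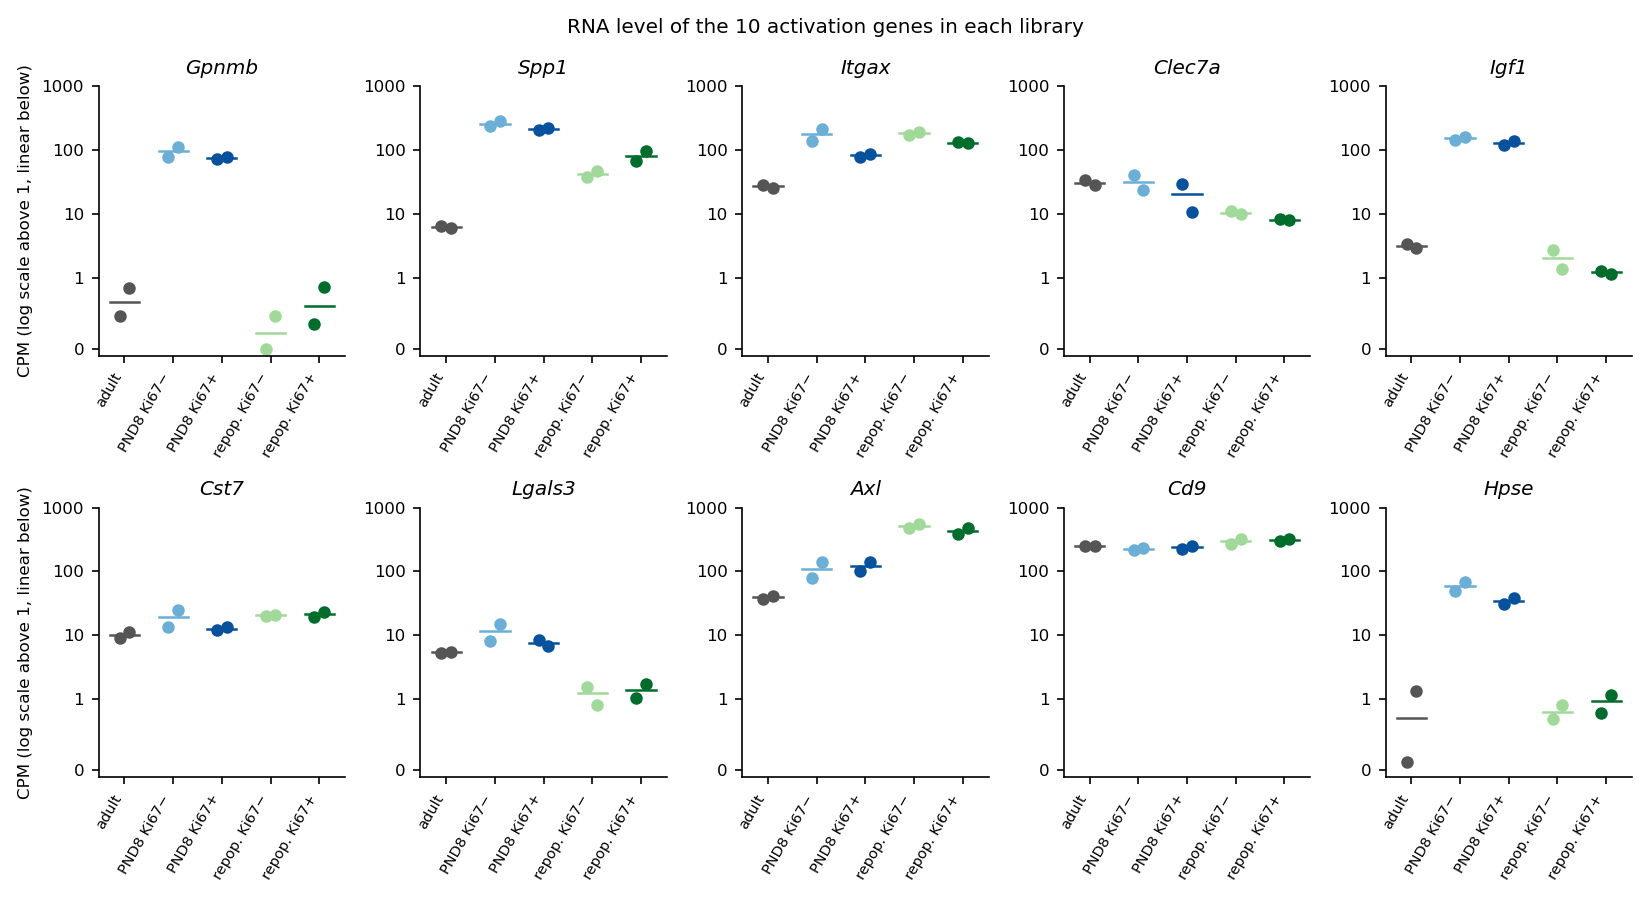
Each panel shows 1 gene, with CPM on a log scale above 1 and a linear scale below. Points are libraries, 2 a group, and bars are group means. Gpnmb, Igf1 and Hpse stand out at PND8 only, Axl is highest in repopulation, and Cd9 lies between 215 and 325 CPM throughout.

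Against adult, PND8 Ki67-negative cells had 8 of the 10 genes past an adjusted p of 0.05 in edgeR's quasi-likelihood fit, all higher, where 46.8% of 12230 tested genes passed and 25.4% were higher. PND8 Ki67-positive cells had 6, all higher (49.5% of all genes passed, 25.1% higher and 24.3% lower). In repopulation, Ki67-positive cells had 5 higher and 3 lower (44.9% of all, 23.9% higher and 21.0% lower). Ki67-negative cells had 4 higher and 2 lower (39.2% of all, 21.5% higher and 17.6% lower). The median log2 fold change of the 10 genes was 1.61 for PND8 and 0.37 for repopulation Ki67-positive cells, beside 0.00 and -0.01 over all tested genes. Since the genes were chosen on these groups, nothing is read from the counts. All 10 passed the filter on low counts.

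Repopulation and PND8 cells were also set side by side, as a description, since the choice of the 10 genes used this contrast. In Ki67-positive cells, 4 genes were higher in repopulation (Itgax, Cst7, Axl, Cd9) and 6 lower, each past the same threshold, which 30.9% of all genes passed (16.7% higher and 14.2% lower). Fewer of the 10 genes passed when a replicate was left out. The share of all genes is not given for those fits, so nothing is read from that. In Ki67-negative cells, 2 were higher (Axl, Cd9) and 6 lower, with 36.6% of all genes past it (18.0% higher and 18.6% lower). The largest gaps were those of Gpnmb, at -6.98 (SE 0.363) on the log2 scale, Igf1, at -6.70 (SE 0.211), and Hpse, at -5.13 (SE 0.395), in Ki67-positive cells. One code in the column headers was shared by replicate 2 of PND8 and replicate 1 of repopulation. Within it, the same differences were -7.59, -6.67 and -5.45, and that of Axl was 1.47 against 1.83 (SE 0.215) for all libraries.

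**Figure D2:**
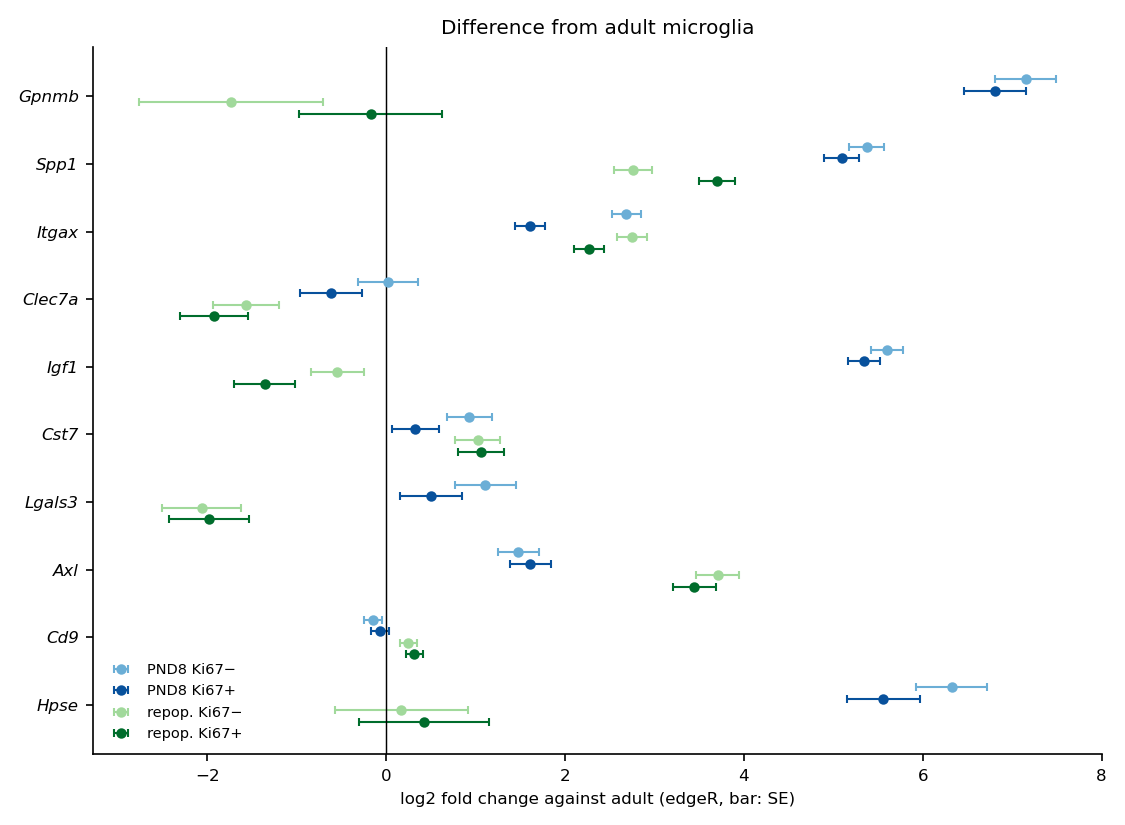
The plot gives the log2 fold change against adult for each gene and group, with bars of 1 SE from the edgeR fit on 2 libraries a group. Gpnmb, Igf1 and Hpse lie beyond 5 at PND8 and at or below 0.42 in repopulation, while Clec7a and Lgals3 lie below 0 in repopulation.

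By Ki67 status, 1 of the 10 genes passed the threshold in each setting. That fit had no term for the header code, which same-numbered libraries of a setting share. At PND8, Itgax was lower in Ki67-positive cells, with a log2 fold change of -1.08 (SE 0.151) and an edgeR adjusted p of 0.000834. It was lower in both replicates, by -0.82 and -1.27. None of the other 9 passed, where 5.90% of all genes did (2.75% higher and 3.15% lower). Spp1, Itgax, Igf1, Cst7 and Hpse had both Ki67-positive libraries below both Ki67-negative ones, and 26.3% of all genes did so. Within each header code, 7 of the 10 were lower in the Ki67-positive library in both PND8 pairs, the same 5 with Gpnmb and Clec7a. The share of all genes lower in both pairs was not computed, so nothing is read from that count. Hpse came nearest to passing, at -0.77 (SE 0.241, edgeR adjusted p = 0.0825). The share of all genes passing is not given for the alternative fits that follow, so nothing is read from their counts. With the header code as a term in the fit 5 genes passed, namely Itgax, Hpse, Clec7a, Spp1 and Igf1. Without replicate 1 of the Ki67-negative cells 3 passed, and without replicate 1 of the Ki67-positive cells 2. Endothelial markers were also lower in these Ki67-positive cells, at 51.2 to 51.9 CPM against 83.8 to 86.9 CPM, and their part was not tested.

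In repopulation, Spp1 was higher in Ki67-positive cells, by 0.94 on the log2 scale (SE 0.158, edgeR adjusted p = 0.00455). The rise was 0.82 in replicate 1 and 1.02 in replicate 2. It was the one gene of the 10 to pass, where 2.74% of all genes did (1.87% higher and 0.867% lower). The call rested on 2 libraries. Without replicate 1 of the Ki67-negative cells the value was 0.78 (adjusted p = 0.102), and without replicate 2 of the Ki67-positive cells it was 0.66 (adjusted p = 0.0566). Itgax was again lower in Ki67-positive cells, by -0.48 (SE 0.149), without passing (edgeR adjusted p = 0.120). It passed in edgeR with the header code as a term (adjusted p = 0.00205), with the replicate number as a block (0.0292), with only the groups compared (0.0270) and without the filter on low counts (0.000499). Axl passed with the header code alone (edgeR adjusted p = 0.0345). Endothelial markers were at 65.2 to 72.0 CPM in the Ki67-negative and 45.9 to 46.6 CPM in the Ki67-positive libraries, and their part was not tested.

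Spp1 thus had a Ki67 difference of -0.28 (SE 0.140) at PND8 and 0.94 in repopulation. The test of that difference, the interaction of Ki67 and setting, gave 1.22 (SE 0.211), with an unadjusted p of 5.72e-05 and an edgeR adjusted p of 0.285. No gene of all 12230 passed it in edgeR, and 2 of the 10 (Spp1 and Itgax) had an unadjusted p under 0.05. Without replicate 1 of PND8 Ki67-negative cells 2 of the 10 passed, and without replicate 1 of repopulation Ki67-positive cells 1. DESeq2 called Spp1 alone among the 10 (1.19, adjusted p = 0.000898). The share of all genes called in these alternative fits is not given, so nothing is read from their counts.

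**Figure D3:**
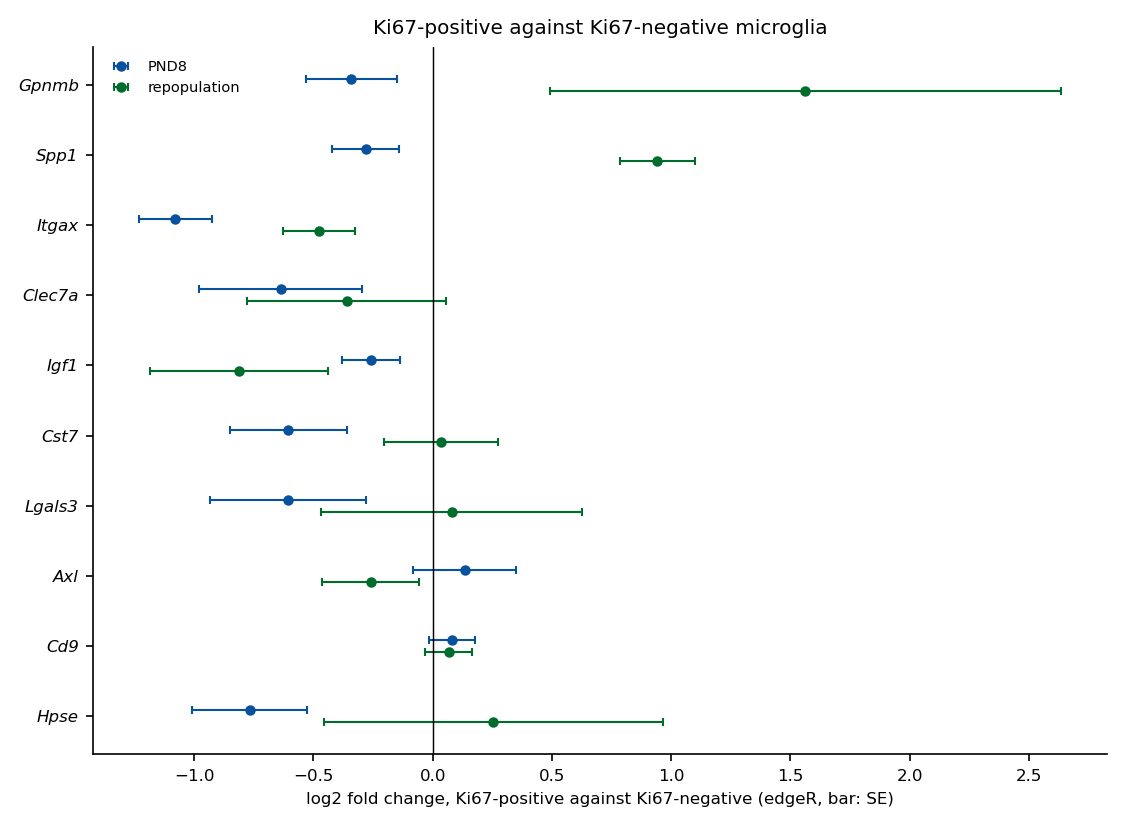
The plot gives the log2 fold change of Ki67-positive against Ki67-negative cells, with bars of 1 SE from the edgeR fit on 2 libraries a group. Spp1 lies at -0.28 for PND8 and 0.94 for repopulation, and Itgax at -1.08 and -0.48.

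Genes that act with the 10 were read from fixed lists, for Ki67-positive cells against adult. Of all genes tested, 25.1% rose and 24.3% fell at PND8, and 23.9% rose and 21.0% fell in repopulation, which are the shares to read each list against. Of 27 further genes of the DAM programme, 13 rose and none fell in PND8 Ki67-positive cells against adult, and 13 rose and 7 fell in repopulation Ki67-positive cells. Fabp5, a fatty acid binding protein, was at 7.82 and 7.86 CPM at PND8 against 0.694 and 0.489 CPM in adult (log2 fold change 3.69, SE 0.588, edgeR adjusted p = 0.000183). In repopulation the largest rises were those of Ch25h, which makes 25-hydroxycholesterol (22.4 and 33.2 against 1.73 and 1.71 CPM), and Capg, an actin capping protein (175 and 220 against 22.9 and 18.9 CPM). The chemokine Ccl3 fell by 1.81 (SE 0.162), and Ccl4 fell by 1.88 (SE 0.320). None of the 27 was called by Ki67 status in either setting. Of all genes, 5.90% were called by Ki67 status at PND8 and 2.74% in repopulation, so nothing is read from that.

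Receptors for osteopontin moved unevenly. Of 8 genes, 3 rose and 4 fell in PND8 Ki67-positive cells, and 4 rose and 2 fell in repopulation Ki67-positive cells. Cd44, a hyaluronan and osteopontin receptor, was at 45.3 and 50.2 CPM in repopulation against 5.20 and 4.28 CPM in adult (3.33, SE 0.254, edgeR adjusted p = 2.64e-07). CD44 was one of the proteins the sort used. Itga4, the alpha4 integrin chain, rose by 3.11 (SE 0.183) in repopulation and by 1.71 (SE 0.190) at PND8. Itgav and Itgb3, the chains of the vitronectin receptor, fell by 0.75 (SE 0.120) and 0.59 (SE 0.090) at PND8. Itga4 also rose with Ki67 in both settings, by 0.70 (SE 0.172) and 0.74 (SE 0.155), and was picked out after its values were seen.

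Besides Itgax, 4 beta2 integrin genes were listed, the shared beta chain Itgb2 and other alpha chains (Itgam, Itgal, Itgad). In repopulation Ki67-positive cells 2 rose and none fell, and at PND8 1 rose and 3 fell. Itgal, the alpha chain of LFA-1, rose in both (0.347 and 1.34 CPM in adult, 21.4 and 38.95 CPM in PND8, 58.8 and 88.5 CPM in repopulating cells). Itgb2, the beta chain that pairs with CD11c, rose by 0.47 (SE 0.094) in repopulation and fell by 0.70 (SE 0.095) at PND8 (edgeR adjusted p = 0.00114 and 4.70e-05).

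The ligands of Axl and the receptors related to it made a list of 4 genes. Gas6, its main ligand, rose by 1.18 (SE 0.086) in PND8 Ki67-positive cells and fell by 0.75 (SE 0.087) in repopulation Ki67-positive cells (edgeR adjusted p = 1.49e-07 and 1.41e-05). Mertk, the receptor kinase of resting microglia, fell in both, by 0.92 (SE 0.106) and 0.67 (SE 0.106). Pros1 rose by 0.34 (SE 0.089) in repopulation. Of the 4 genes, 1 rose and 1 fell at PND8, and 1 rose and 2 fell in repopulation.

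In the insulin-like growth factor axis, 7 of 13 listed genes passed the filter. At PND8 1 rose and 2 fell, and in repopulation 1 rose and 2 fell. Igfbp4, which binds the factor outside cells, rose from 69.3 and 67.5 CPM in adult to 386 and 372 CPM at PND8, and to 194 and 198 CPM in repopulation. Igf1r, the receptor, fell by 0.69 (SE 0.121) in repopulation, and Irs2, its adaptor, by 1.08 (SE 0.211) at PND8.

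Among 13 cathepsins and cystatins, 3 rose and 4 fell at PND8 and 6 rose and 2 fell in repopulation, always for Ki67-positive cells against adult. Ctsc, which activates granule proteases, was at 509 and 586 CPM in repopulation against 323 and 328 CPM in adult (0.75, SE 0.125). Cst3, an extracellular cystatin, fell in both settings, by 0.70 (SE 0.119) at PND8 and 0.32 (SE 0.119) in repopulation. For the galectins, 5 of 7 genes passed the filter, with 1 rise and 2 falls at PND8 and 3 rises and 1 fall in repopulation. Lgals1 rose in both while Lgals3 was low in repopulation. Adult libraries held 2.54 and 2.44 CPM of Lgals1, PND8 libraries 14.8 and 16.9 CPM, and repopulation libraries 19.4 and 20.3 CPM.

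Heparan sulfate genes (13 of 16 past the filter) gave 4 rises and 3 falls at PND8 and 3 of each in repopulation. Sulf2, which removes sulfate from these chains, rose by 2.96 (SE 0.168) and 2.35 (SE 0.169), and Sgsh, a lysosomal sulfatase, fell by 2.15 (SE 0.206) and 2.04 (SE 0.206). Among 14 tetraspanins and partners, 2 rose and 6 fell at PND8 and 2 rose and 4 fell in repopulation. Cd63, the lysosomal tetraspanin, rose by 0.46 (SE 0.110) at PND8 and fell by 0.84 (SE 0.117) in repopulation. Of 7 tested genes that act downstream of Clec7a or beside it, 0 rose and 3 fell at PND8, and 1 rose and 2 fell in repopulation, in edgeR. Of 9 tested factors of lysosome and lipid genes, 1 rose and 4 fell at PND8, and 1 rose and 3 fell in repopulation. Tfec, a relative of the lysosome factor Tfeb, was the one that rose at PND8 (3.43, SE 0.361), and Mitf fell in both (-0.66, SE 0.135, and -1.196, SE 0.140). Resting microglia genes fell where they were called, 8 of 14 at PND8 and 7 of 14 in repopulation.

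The median log2 fold change of all genes tested was 0.00 at PND8 and -0.01 in repopulation. Against it the further DAM genes had 0.34 and 0.29, the resting genes -0.30 and -0.29, and the 4 genes around Axl 0.59 and -0.17. Medians of opposite sign in the settings were also those of osteopontin receptors (-0.21 and 0.28), beta2 integrins (-0.51 and 0.34), galectins (-0.08 and 0.65), cathepsins and cystatins (-0.02 and 0.12), tetraspanins (-0.23 and 0.11) and heparan sulfate genes (0.42 and -0.04). The PND8 medians of galectins and of cathepsins and cystatins lay close to that of all genes. So did the repopulation median of heparan sulfate genes. Differences between the settings in these medians were not tested. The growth factor axis had -0.30 and -0.56, the genes around Clec7a -0.20 and -0.11, and the lysosome and lipid factors -0.34 and -0.09.

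The 10 genes did not share one pattern over the 10 libraries. As a description, Pearson's r of log2 CPM was 0.973 between Gpnmb and Hpse, 0.969 between Gpnmb and Igf1 and 0.953 between Igf1 and Hpse, and it was -0.879 between Axl and Clec7a and -0.897 between Cd9 and Lgals3. Over genes outside the list, the nearest to Gpnmb was Vac14 (0.992), to Spp1 Ubap2 (0.996), to Igf1 Rgs7bp (0.997) and to Hpse Ak4 (0.992). Axl lay nearest Oas1a (0.995), an interferon-induced antiviral enzyme that was at 4.28 and 5.87 CPM in adult, 9.53 to 19.4 CPM at PND8 and 64.0 to 84.1 CPM in repopulation. Clec7a lay nearest Jun (0.971), an immediate early gene, which shared the split between PND8 replicates. Jun was at 352 and 211 CPM in Ki67-negative and 265 and 152 CPM in Ki67-positive cells. The other first neighbours were Cdc6 for Itgax (0.986), Mthfsd for Cst7 (0.944), Poldip2 for Lgals3 (0.980) and Ctsc for Cd9 (0.971). Cdc6, which loads the replication machinery, was at 25.9 and 26.7 CPM in PND8 Ki67-negative and 6.17 and 6.70 CPM in PND8 Ki67-positive cells. The 10 points of each r are 5 groups of 2.

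Promoters of all 10 genes were in the RefSeq table (GRCm38.p6), which holds 250 bases before and 50 after each start site. The 250 upstream bases of 4 genes are shown, for a gene high at PND8 alone (Gpnmb), both kinds of H3K27ac pattern described next (Igf1, Spp1) and the gene that differed with Ki67 at PND8 (Itgax). Capitals mark the matches of 6 motifs searched on both strands, namely AP-1, E-box, M-box, PU.1, an interferon element and TATA, whose letters are given with their counts. No searched motif shared letters with another in these matches.
Gpnmb: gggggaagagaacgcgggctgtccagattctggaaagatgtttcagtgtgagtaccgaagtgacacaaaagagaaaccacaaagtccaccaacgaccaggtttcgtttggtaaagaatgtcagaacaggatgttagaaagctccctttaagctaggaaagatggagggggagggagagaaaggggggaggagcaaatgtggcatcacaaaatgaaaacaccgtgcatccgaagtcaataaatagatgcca
Igf1: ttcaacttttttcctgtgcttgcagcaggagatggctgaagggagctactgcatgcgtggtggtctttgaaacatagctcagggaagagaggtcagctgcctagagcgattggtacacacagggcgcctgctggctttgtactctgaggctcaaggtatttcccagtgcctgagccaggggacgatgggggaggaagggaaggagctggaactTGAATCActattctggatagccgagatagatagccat
Spp1: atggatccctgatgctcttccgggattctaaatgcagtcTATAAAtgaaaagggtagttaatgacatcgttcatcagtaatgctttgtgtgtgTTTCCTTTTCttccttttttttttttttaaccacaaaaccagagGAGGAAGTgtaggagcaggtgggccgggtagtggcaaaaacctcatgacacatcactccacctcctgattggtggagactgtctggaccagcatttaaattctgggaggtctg
Itgax: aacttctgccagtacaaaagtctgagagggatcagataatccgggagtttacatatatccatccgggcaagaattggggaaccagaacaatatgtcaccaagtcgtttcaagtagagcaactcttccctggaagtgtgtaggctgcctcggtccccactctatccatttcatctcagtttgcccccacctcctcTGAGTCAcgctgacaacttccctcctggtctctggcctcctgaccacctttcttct
The Gpnmb stretch is chr6:49036268-49036517, Igf1 chr10:87860861-87861110, Spp1 chr5:104434861-104435110 and Itgax chr7:128129300-128129549, all on the plus strand. The AP-1 letters were searched as TGANTCA, with any base allowed at N. Matches lay in the 300-base window of 4 of the 10 genes (Gpnmb, Itgax, Igf1, Cst7) and in 7.81% of 32851 promoters of that length. The match read TGAGTCA in Itgax and TGAATCA in Igf1, so the matched bases differed between genes. In Gpnmb the match began at base 9 after the start site, outside the stretch shown, in Itgax at -56, in Igf1 at -37 and in Cst7 at -6. Spp1 alone had the PU.1 letters, GAGGAAGT (at -113, found in 3.20% of all promoters). It alone also had the interferon letters, a pair of GAAA stretches with any 2 bases between them, on the minus strand (at -157, 3.44% of all). The TATA letters, TATAAA, were in Spp1 (at -211) and in 13.6% of all promoters. In Clec7a they lay on the minus strand, at base 43 after the start site. A gene was counted if any of its promoters matched, while the shares are of single promoters. The E-box letters, CACGTG, were in none of the 10 and in 7.15% of all promoters. The M-box letters, TCATGTG, which the factors of the Mitf family can also bind, were in none of the 10 and in 3.77% of all. A match of letters is no evidence of binding. The RefSeq start of Igf1 lies 2059 bases downstream of the start used by the count table and the windows below.

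H3K27ac was read at the start sites first. Peak presence was counted where an authors' peak touched the 1 kb on either side of the start site. In adult cells 2 of the 10 genes (Itgax, Cd9) had a peak in both libraries, and 40.8% of all genes did. The number was 6 in PND8 Ki67-negative (48.1% of all genes), 4 in PND8 Ki67-positive (49.2%), 7 in cuprizone Ki67-negative (43.8%), 8 in cuprizone Ki67-positive (45.8%) and 5 in repopulation Ki67-positive cells (47.2%). Only Itgax and Cd9 had a peak there in all 12 libraries. Without replicate 1 of PND8 Ki67-positive cells that group had 7. With only peaks of at least 8 times the input, the counts were 1 in adult and 2 in each PND8 group. They were 4 in cuprizone Ki67-negative, 5 in cuprizone Ki67-positive and 2 in repopulation cells. The share of all genes was not computed for the left-out and stricter counts, so nothing is read from them. An exact permutation test of 2 libraries against 2 cannot reach 0.05 and no model was fitted to the peak lists, so these are counts with no test.

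The length under peaks was then compared within 20 kb on either side of each start site. In PND8 Ki67-negative cells 7 genes had more length in both libraries than in both adult ones (29.4% of all genes), and in PND8 Ki67-positive cells 4 (35.3%). It was 7 in cuprizone Ki67-negative (20.7%), 8 in cuprizone Ki67-positive (25.8%) and 6 in repopulation Ki67-positive cells (36.6%). None of the 10 had less length than adult in any of the 5 groups, by this rule of both libraries below both, as 3.65%, 2.51%, 1.65%, 2.29% and 1.93% of all genes did in the same order of groups. The PND8 Ki67-positive count was 8 when replicate 1 of that group was left out, and also 8 without adult replicate 2. The share of all genes was not computed for these left-out counts. The median over the 10 genes was 0 and 1219 bp in the adult libraries and 4514 and 5136 bp in cuprizone Ki67-positive ones, beside 643 and 1134 bp and 1102 and 1596 bp over all genes. Lists differed in depth of calling, with 32.6% and 58.3% of tags in peaks in the adult libraries and 45.5% to 69.7% in the other 10. Cuprizone and PND8 Ki67-positive cells differed in 8 genes, all longer in cuprizone, which 9.75% of all genes were (15.3% were shorter). Between cuprizone and PND8 Ki67-negative cells 6 were longer in cuprizone (11.3% of all genes) and 2, Gpnmb and Hpse, shorter (12.9%). Repopulation had 6 longer than PND8 Ki67-positive cells (16.9%) and 3 shorter, Gpnmb, Igf1 and Hpse (11.7%). Against repopulation, cuprizone Ki67-positive cells had 5 longer, namely Clec7a, Igf1, Cst7, Lgals3 and Cd9 (6.25%), and none shorter (17.7%). By Ki67 status, Spp1 and Igf1 were shorter in Ki67-positive cells at PND8 (5.51%), with none longer (17.0%). In cuprizone, Axl was longer (8.56%) and Lgals3 shorter (5.95%) in Ki67-positive cells.

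At Igf1 the groups with and without H3K27ac were separate. No peak lay within 20 kb of its start in either adult library. In PND8 and cuprizone cells a broad peak spanned the start site, 3426 and 3822 bp long in PND8 Ki67-negative, 2613 and 3137 bp in PND8 Ki67-positive, 3076 and 3944 bp in cuprizone Ki67-negative, and 3695 and 3827 bp in cuprizone Ki67-positive libraries. A second peak lay 15.5 to 18.1 kb upstream in these 8 libraries. Repopulation libraries had none at the start site, and one of them had a 500 bp peak upstream at the 0.0666th percentile of its list by tag number. Covered length was 0 bp in both adult libraries, 3115 to 6285 bp in PND8 and cuprizone libraries, and 0 and 501 bp in repopulation. Igf1 RNA was high at PND8 and low in adult and repopulation.

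Gpnmb and Hpse, the other genes high at PND8 alone, had small peaks where one was called at the start site. Gpnmb had a start site peak in both PND8 Ki67-negative libraries, at the 23.3rd and 7.69th percentile of their lists by tag number, and in neither PND8 Ki67-positive library. Those 2 had a peak 18.5 to 19.6 kb upstream. Hpse had a start site peak in both PND8 Ki67-negative libraries, at the 3.62nd and 18.6th percentile. It also had one in PND8 Ki67-positive replicate 2, at the 11.3rd, and none in replicate 1. Adult and repopulation libraries had no Gpnmb or Hpse peak in the 40 kb window. In cuprizone Ki67-positive cells replicate 2 had a start site peak at Gpnmb and Hpse and replicate 1 had none. Replicate 2 also had a larger Hpse peak 8.13 to 10.65 kb downstream, at the 48.1st percentile.

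Spp1 was marked away from its start. A peak 7.67 to 9.88 kb upstream was called in 11 of 12 libraries, absent in adult replicate 1. It was 898 bp long in adult replicate 2, 500 to 1273 bp at PND8, 1989 to 2096 bp in cuprizone and 1559 and 1947 bp in repopulation. Within its own list the peak stood at the 12.4th percentile in adult replicate 2, between the 6.30th and 39.1st at PND8, and between the 58.2nd and 77.6th in cuprizone and repopulation. A start site peak was in no adult or PND8 library, although Spp1 RNA was highest at PND8. It was called in both cuprizone Ki67-positive libraries, in replicate 2 of cuprizone Ki67-negative cells and in replicate 1 of repopulation.

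The length covered around Clec7a was 0 and 501 bp in adult libraries, where the RNA was at 33.9 and 28.0 CPM, and 3068 and 2609 bp in repopulation Ki67-positive libraries, where it was at 8.21 and 8.06 CPM. At PND8 the length was 1329 and 1211 bp in Ki67-negative and 0 and 2502 bp in Ki67-positive cells. A peak over the start site stood at the 74.7th and 74.4th percentile in repopulation and from the 50.8th to the 88.7th in cuprizone. The RNA and chromatin of repopulation came from different mice, of 75 and 90 days by the labels.

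**Figure D4:**
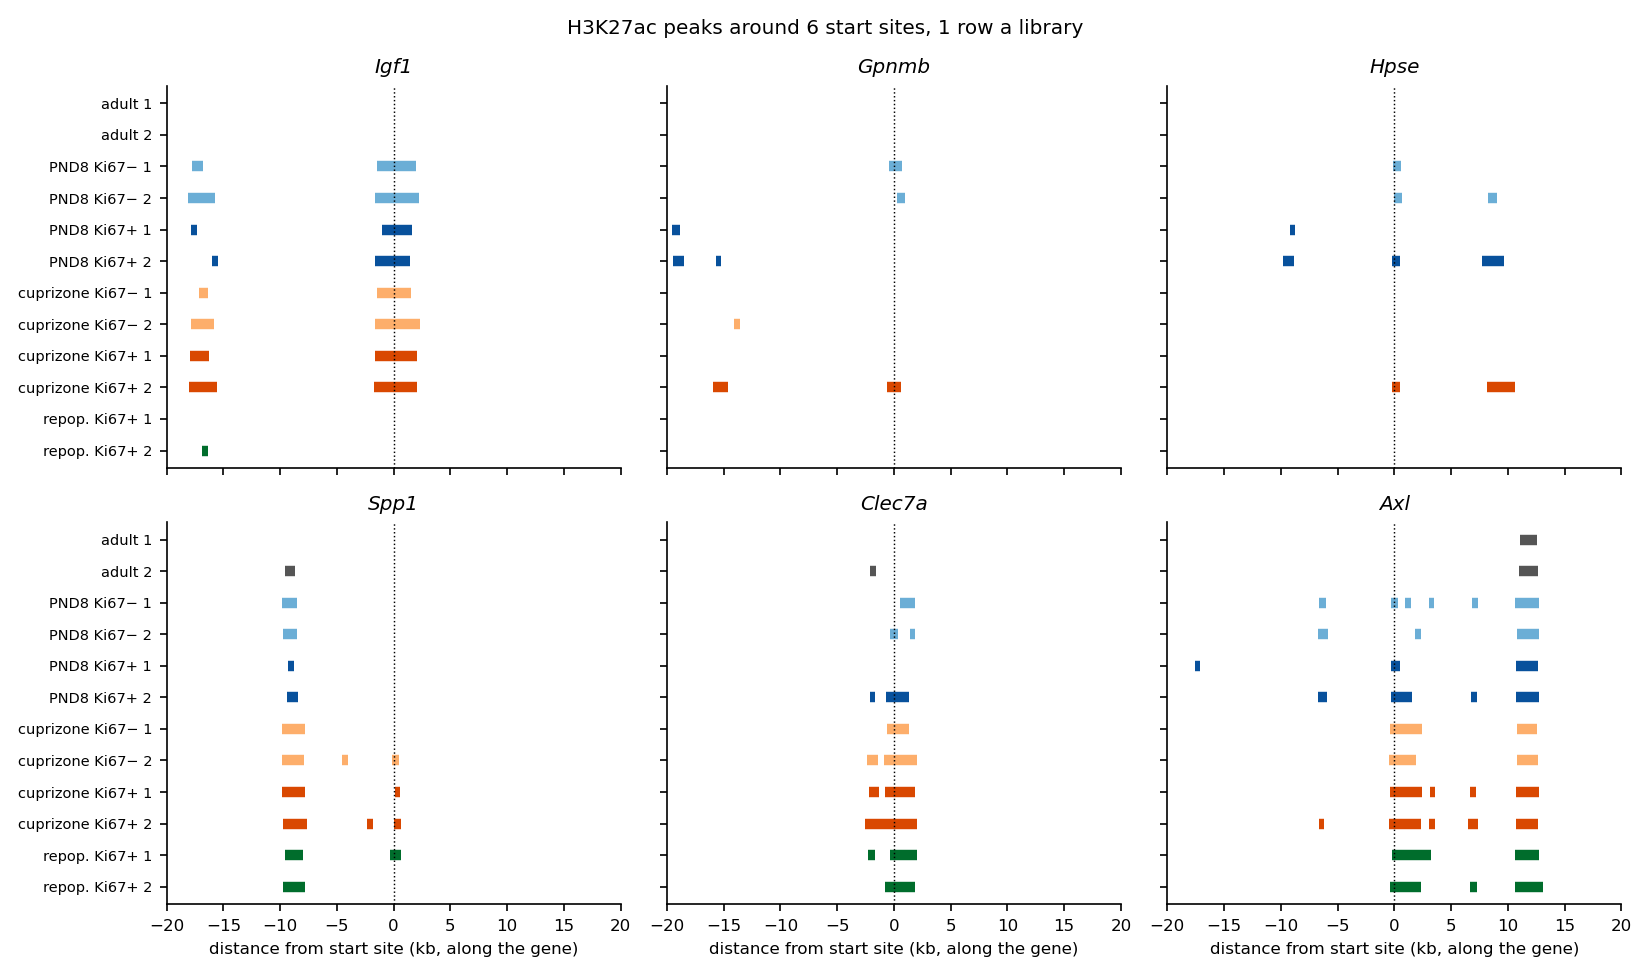
Each row is 1 H3K27ac library and each bar a peak called by the authors, drawn by distance from the start site in kb, with the gene reading to the right. The Igf1 peak at the start site is in all 8 PND8 and cuprizone libraries and in no adult or repopulation library, and the Spp1 peak lies about 9 kb upstream.

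Axl and Cst7 had start site peaks in every cuprizone and repopulation library. Axl had a peak 10.6 to 13.1 kb inside the gene in all 12 libraries. A start site peak was in neither adult library, in 3 of 4 PND8 libraries at 628 to 1825 bp, and in all cuprizone and repopulation libraries at 2405 to 3381 bp. Cst7 had a start site peak in all 4 cuprizone libraries (1591 to 2419 bp) and in both repopulation libraries (1100 and 748 bp). Shorter ones of 500 to 626 bp were in adult replicate 2, PND8 Ki67-negative replicate 1 and PND8 Ki67-positive replicate 2. It had a covered length of 3286 to 4437 bp in cuprizone against 1838 and 1963 bp in repopulation.

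Lgals3 had a strong peak 10.6 to 14.6 kb upstream in all 12 libraries, at the 72.7th to 96.9th percentile of its list. Start site peaks were called in all 4 cuprizone libraries and in none of the other 8. Its covered length was 5522 to 6495 bp in cuprizone and 3171 to 4070 bp elsewhere. Itgax had a start site peak in every library, and covered lengths of 2274 to 4793 bp in adult and PND8 libraries and 4479 to 7278 bp in cuprizone and repopulation ones. Cd9 was the most marked gene of the 10, with 7162 and 9768 bp in adult, 8394 to 10256 bp at PND8, and 12154 to 13613 bp in cuprizone and repopulation libraries, without overlap between the last 2 and the others. Its start site peak stood at the 95.3rd to 99.7th percentile in those 6 libraries and at the 58.5th to 79.8th in the other 6.

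**Figure D5:**
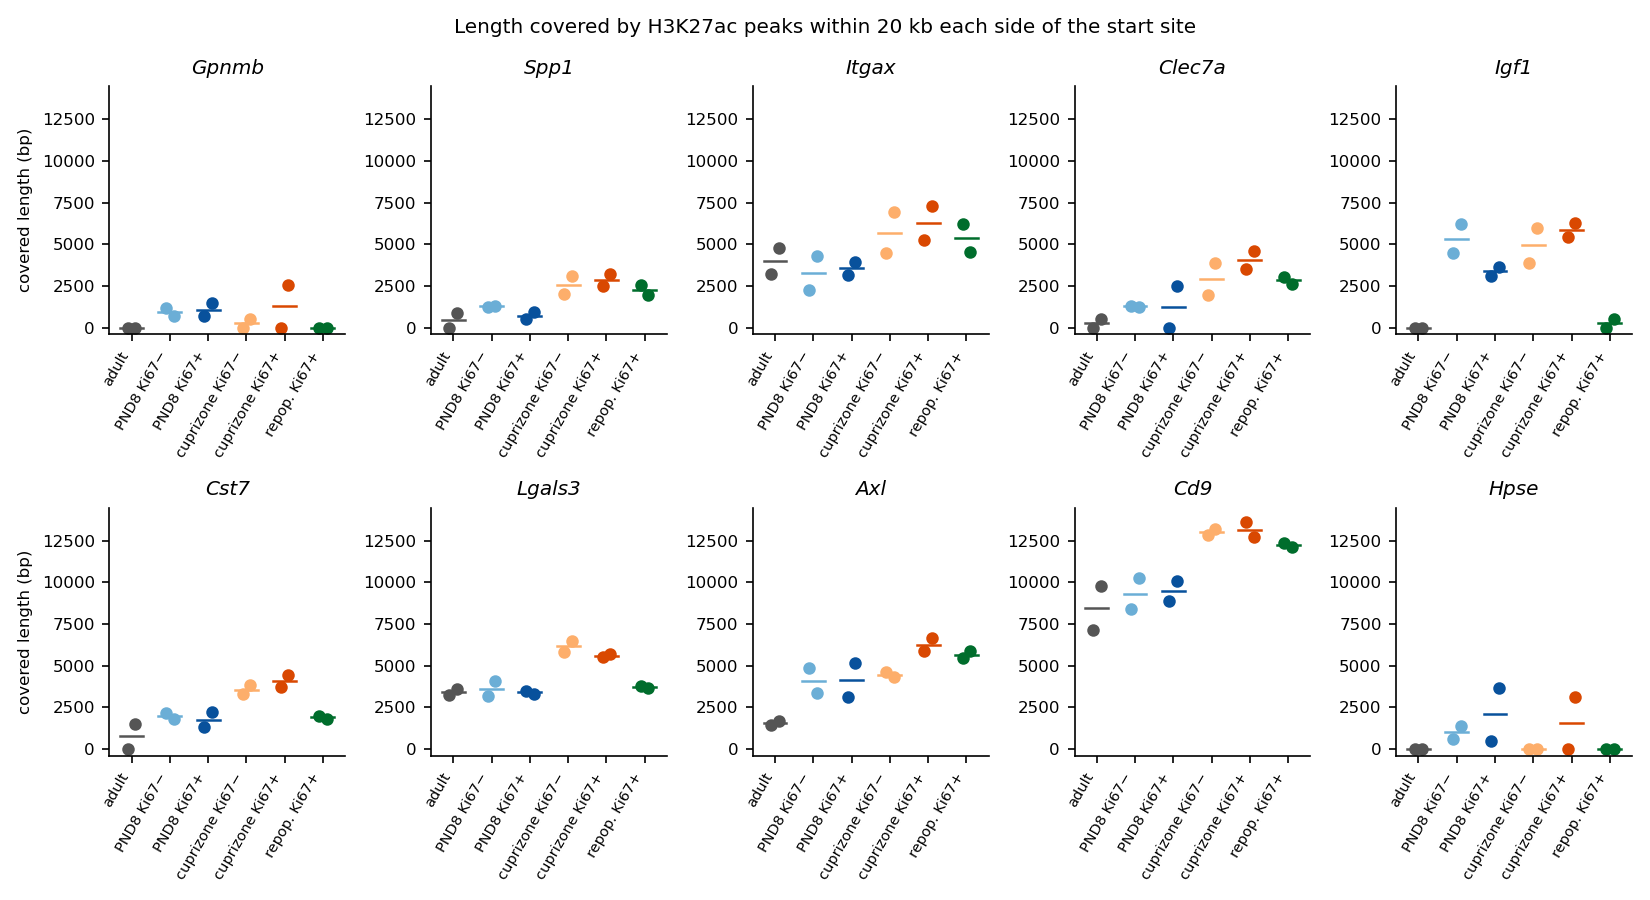
Each panel shows 1 gene, with the length in bp under H3K27ac peaks within 20 kb of the start site. Points are libraries, 2 a group, and bars are means. Igf1 lies at 0 in adult and at 3115 bp or more in PND8 and cuprizone, and Cd9 is at 12154 bp or more in cuprizone and repopulation.

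A header code was shared by 4 H3K27ac libraries, namely adult replicate 2, both second replicates of PND8 and replicate 1 of repopulation. Within it, Igf1 was at 0, 6215, 3639 and 0 bp, and Axl at 1688, 3364, 5147 and 5446 bp. Clec7a was at 501, 1211, 2502 and 3068 bp in the same order. Another code joined the first replicates of PND8 and cuprizone, and a further code the second replicates of cuprizone and repopulation. Cuprizone libraries shared no code with adult, so code and treatment cannot be told apart in that comparison.

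Other readouts were available for some groups. ATAC-seq, which maps open chromatin, was from 1 library a group, of adult (80 days), PND8 Ki67-positive and repopulation Ki67-positive mice (75 days, with PLX5622 from day 55). Adult cells had an ATAC peak within 1 kb at 7 of the 10 genes (56.0% of all genes), the exceptions being Gpnmb, Axl and Hpse. PND8 and repopulation Ki67-positive cells had one at all 10 (58.4% and 60.8% of all). Gpnmb and Hpse thus had ATAC peaks in repopulation, where their RNA was at 0.347 to 1.15 CPM and no H3K27ac peak was called. H3K4me3, a histone mark of promoters, was at 5 of the 10 in both adult libraries, of 75 days (59.1% of all genes), Igf1, Lgals3, Axl, Cd9 and Hpse. At Igf1 it was 2135 and 2206 bp long, with no H3K27ac peak in adult. Rpb2, a subunit of RNA polymerase II, had a peak at Cd9 alone in both adult libraries, of 60 and 65 days (28.1% of all genes) and at Igf1, Lgals3 and Cd9 in the PND8 library (48.4%), which was called against an H3K27ac input.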

How the data were processed

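The members and the gene lists were chosen with earlier results of these data known. RNA was poly(A)-selected and strand-specific, per the labels' protocols. The authors deposited raw counts per gene and TPM, made per the file headers with HOMER at no more than 3 tags per position. The submitters' processing notes name STAR 2.7.0f, Bowtie2 2.3.4.1, HOMER 4.11, DESeq2 and the builds mm10 and GRCm38. The peak lists deposited by the authors give normalized tags, a signal, and the fold over input, a ratio, for each peak. Peaks were called per library, per the file headers. Count and TPM tables use different transcripts for 3 of the 10 genes. No column of per-sample values was left unused (0).

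Counts were fitted in edgeR 4.0.16 (R 4.3.3), with TMM scaling, its filter on low counts (12230 of 20999 genes kept) and the quasi-likelihood test over all 10 libraries in 5 groups, for 9 comparisons. Adjusted p-values are Benjamini-Hochberg over all tested genes, with a threshold of 0.05, and an SE is the log2 fold change over the root of F. The scripts were tested on simulated data. CPM uses TMM-scaled library sizes. H3K27ac was read as any overlap of at least 1 bp with the 1 kb, and as bp covered in the 20 kb, each side of the start site in the count table. Percentiles by tags hold within 1 list only. DESeq2 1.42.0 and limma 3.58.1 on log2 TPM were alternatives. Further genes were named by size: among those called, the largest in each direction per list. Intervals cover counting error only.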

Additional observations from a re-analysis of the deposited data

Results flagged for a closer look

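For 4 genes, every PND8 library lay on one side of both adult libraries and every repopulation library of the same Ki67 status on the other. The genes were chosen on these groups, and the share of all genes with such a pattern was not computed. This is a description with no p, and nothing is read from the count. In Ki67-positive cells the log2 fold changes against adult were 5.34 at PND8 and -1.36 in repopulation for Igf1, and 0.50 and -1.98 for Lgals3. In Ki67-negative cells they were 7.15 and -1.73 for Gpnmb, where the repopulation libraries held 0 and 3 counts. Igf1 had 5.60 and -0.55, Lgals3 had 1.11 and -2.06, and Cd9 had -0.15 and 0.25 in the same cells. PND8 and repopulation share the adult libraries. Set directly against PND8, repopulation differed by -6.70 (SE 0.211) for Igf1 and -2.48 for Lgals3 in Ki67-positive cells, and by -8.88 for Gpnmb, -6.15 for Igf1, -3.17 for Lgals3 and 0.40 for Cd9 in Ki67-negative cells.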

How the results depend on the processing

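Of 193 alternatives for counts of the 10 genes, 164 stayed within 1.5 times the reported count. Of 1224 for single values, 1153 were labelled unchanged. For Ki67 and interaction values that meant the same call, and for the others a move within the replicate spread, whatever the call. Among the Ki67 and interaction values 23 gained and 3 lost a call. Among the others 45 moved by more than the replicate spread, and calls gained or lost there were not tallied. No result called in the main fit changed direction. The count by Ki67 at PND8 (1) was 4 without the filter on low counts, 5 with the header code as a term, and 1 to 3 when single replicates were left out. The count in repopulation (1) was 2 without the filter, 0 with a fold of at least 2, 3 with the header code, 2 with only the groups compared, and 0 to 1 over left-out replicates. The interaction (0) gave 1 in DESeq2, 2 without the filter, and 0 to 2 over left-out replicates. Shares of all genes are not given for the alternatives here, so nothing is read from these counts. With the replicate number as a block, the Ki67 counts at PND8 and in repopulation and the interaction count were 2, 2 and 1. No label says that the numbers pair the samples, but same-numbered Ki67-positive and Ki67-negative libraries of a setting share a header code of unstated meaning, and their deviations correlated at 0.338 (PND8) and 0.263 (repopulation), against -0.008 to 0.097 in the other same-numbered pairs. Repopulation against PND8 in Ki67-positive cells (10) gave 6 to 9 over left-out replicates. With H3K27ac peaks of at least 8 times the input, start site counts were 1 in adult, 2 in PND8 Ki67-negative, 2 in PND8 Ki67-positive, 4 in cuprizone Ki67-negative, 5 in cuprizone Ki67-positive and 2 in repopulation cells, and counts with longer coverage than adult were 3 in PND8 Ki67-negative and 3 in repopulation. Over left-out replicates, PND8 Ki67-positive cells gave 4 to 7 start site peaks and 4 to 8 longer coverages. The share of all genes was not computed for these alternative peak counts, and the cause of their moves was not tested. With 2 libraries a group, a left-out fit assumes that the lone library varies like the other groups.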
